A study of Mus musculus with 6 samples.

Results

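The anaphase-promoting complex or cyclosome (APC/C) and the genes that act with it at mitotic exit were examined in mouse small pre-B cells. The set held 10 genes, matched by symbol among the 49997 gene symbols of the count table: the activators Cdc20 and Fzr1, the ubiquitin-conjugating enzymes Ube2c and Ube2s, the inhibitor Fbxo5, securin (Pttg1) and separase (Espl1), and the core subunits Anapc1, Cdc27 and Cdc16. All 10 were listed, and 7 had enough reads to be tested among 7792 tested genes. The other 3 (Ube2c, Ube2s and Pttg1) are given as counts.

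Small pre-B cells are the stage of B-cell development in the bone marrow at which the immunoglobulin light chain genes are rearranged, after the division burst of large pre-B cells. The study compared WT C57BL/6 mice with mice of the ΔrsCBE genotype, both 6 to 12 weeks old, with 3 RNA-seq libraries per genotype and 6 in all. The cells were sorted from bone marrow by flow cytometry and used without culture. What the ΔrsCBE allele removes, and whether the libraries of a genotype came from separate mice, are not given in the sources used here. The p-values therefore measure the spread between these libraries, which may be technical among the WT libraries. In ΔrsCBE, replicate 1 differs in sex pattern from replicates 2 and 3 (values below), so the spread there includes a difference between mice.

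The APC/C is a ubiquitin ligase that marks proteins for destruction by the proteasome. With Cdc20 bound, it destroys securin and the mitotic cyclins, which frees separase to cut cohesin and lets the sister chromatids part. With Fzr1 (also called Cdh1) bound, it clears the remaining mitotic proteins and holds the cell in G1, while Fbxo5 (also called Emi1) blocks the complex during S phase and G2. The core subunits are made through the cell cycle and also in cells that do not divide, whereas the mRNAs of Cdc20, Fbxo5, Espl1 and many APC/C substrates peak in dividing cells.

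Promoters of many genes of late cell cycle mRNAs hold a cell cycle homology region (CHR), searched here as TTTGAA or TTCGAA on either strand, together with CCAAT boxes, searched as CCAAT on either strand. Both were sought in the RefSeq promoter windows of GRCm38.p6, which run from 250 bases before the annotated start to 50 bases after it, and all 10 genes had such a window. The CHR was found in 5 of the 10: Cdc20, Ube2c, Fbxo5, Espl1 and Ube2s. The stretches of 30 bases around these matches are shown because they include all 3 genes whose mRNA was called lower in ΔrsCBE cells. They are written 5′ to 3′ on the gene's strand, with CHR and CCAAT matches in capitals.
Cdc20, chr4:118437344-118437373, minus strand: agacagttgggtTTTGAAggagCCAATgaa
Fbxo5, chr10:5805445-5805474, minus strand: ttgggcaccaaaTTCAAAgattttaaaagt
Espl1, chr15:102296254-102296283, plus strand: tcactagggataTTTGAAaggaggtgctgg
Ube2c, chr2:164769888-164769917, plus strand: ggagggttgcaaTTCAAAcgcgggcggcgg
Ube2s, chr7:4812485-4812514, minus strand: tcacaaactgggTTCGAActtctgctacta

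The letters of Cdc20 and Espl1 read TTTGAA on the gene's own strand, starting 18 and 27 bases before the annotated start. Those of Fbxo5 and Ube2c lie on the opposite strand, so they read TTCAAA in the lines above. The Fbxo5 match begins 4 bases after the annotated start, and the Ube2s match lies 162 bases before it, farther out than the rest. Cdc20, Fbxo5, Espl1 and Ube2c also held at least 1 CCAAT box, and no CHR match overlapped one. For contrast, the 150 bases before the start of 2 core subunit genes held no CHR. Capitals again mark CCAAT boxes, which read ATTGG where they lie on the opposite strand.
Cdc27, chr11:104550621-104550770, minus strand: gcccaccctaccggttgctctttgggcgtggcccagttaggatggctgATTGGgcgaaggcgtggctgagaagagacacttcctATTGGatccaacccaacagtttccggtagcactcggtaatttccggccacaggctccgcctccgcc
Anapc1, chr2:128687396-128687545, minus strand: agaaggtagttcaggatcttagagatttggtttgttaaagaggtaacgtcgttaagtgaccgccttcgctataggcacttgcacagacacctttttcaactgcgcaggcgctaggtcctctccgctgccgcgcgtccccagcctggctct

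Across all 32851 promoter windows of the table, 19.2% held a CHR, 37.4% a CCAAT box and 7.52% both. Among the 10 genes, 5 held a CHR, 6 a CCAAT box and 4 both. Fzr1 and Cdc27 held CCAAT boxes without a CHR, and Anapc1, Cdc16 and Pttg1 held neither. None of the 10 held one of the E2F octamers TTTCCCGC, TTTCGCGC, TTTGCCGC or TTTGGCGC, found in 2.26% of all windows. A match describes letters in a window and not a bound site, and its position depends on which start the annotation gives.

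**Figure D1:**
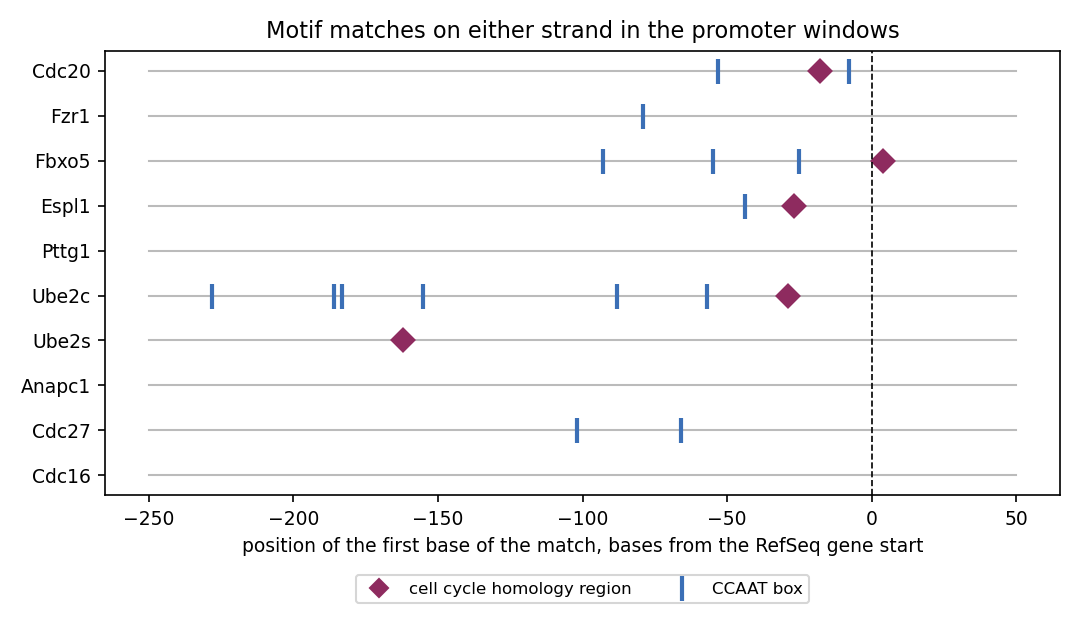
Positions of CHR matches and CCAAT boxes on either strand in the promoter window of each of the 10 genes; the horizontal axis is the distance in bases from the annotated start, from 250 before it to 50 after it. Cdc20, Fbxo5, Espl1 and Ube2c hold both kinds of match, and Anapc1, Cdc16 and Pttg1 hold neither.

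Total counts lay between 428106 and 1300805 per library, so the floor of 3 counts, below which a gene is treated as not detected, lay at 2.38 to 7.36 CPM (counts scaled to a common total of reads in tested genes). The marker genes of the B lineage carried counts for 13 of 13 genes, with a summed level of 10012 to 11952 CPM in WT and 10999 to 11882 CPM in ΔrsCBE. Rag1 and Pax5, at means of 3249 and 3225 CPM in WT, carried most of this sum. Igll1, Vpreb1 and Dntt were too low to be tested, with at most 6, 3 and 3 counts in a library. Mature B markers summed to 459 to 574 CPM in WT and 440 to 491 CPM in ΔrsCBE. Plasma cell markers summed to 58.9 to 79.5 CPM in WT and 54.5 to 90.9 CPM in ΔrsCBE. T and NK cell markers summed to 0 CPM in WT and at most 2.53 CPM in ΔrsCBE, with 4 of 5 at 0 in every library, and myeloid markers to 0 to 6.49 CPM in WT and 6.20 to 8.84 CPM in ΔrsCBE, 25 counts in all. Of the 6 myeloid markers, S100a8 and Elane were at 0 throughout, while Lyz2 and S100a9 had 0 counts in every WT library and 2, 4 and 2 and 2, 1 and 3 counts in the ΔrsCBE libraries. Markers of cycling cells had counts for 7 of 7 genes and summed to 4995 to 5527 CPM in WT and 2157 to 3475 CPM in ΔrsCBE, with no overlap. Mki67 and Top2a, at means of 3569 and 1108 CPM in WT, carried most of this sum. Taken singly, 4 of the 7 were lower in each ΔrsCBE library than in any WT library, beside 8.92% of all tested genes. Mcm2, Mcm5 and Cdk1 overlapped between genotypes. The part of cycling cells in the results that follow was not tested. In bulk samples fewer dividing cells and less RNA per cell cannot be told apart. ΔrsCBE replicates 2 and 3 carried 1603 and 1430 counts of Xist and 0 of Y-linked genes, a female pattern. The WT libraries and ΔrsCBE replicate 1 had at most 1 count of Xist and 121 to 452 of Y-linked genes.

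Of the activators, Cdc20 was called lower in ΔrsCBE cells by edgeR but not by DESeq2. Fzr1 was lower by a smaller amount that missed the threshold. Of the inhibitor and the protease, Fbxo5 and Espl1 fell by a similar amount to Cdc20. The 3 core subunits did not pass the test, and Anapc1 had the same mean level in both genotypes. By edgeR's quasi-likelihood F test, with p-values adjusted over 7792 genes (Benjamini-Hochberg, threshold 0.05), 3 of the 7 tested genes were called, all lower in ΔrsCBE. Of all tested genes 1.69% were called, 1.49% lower and 0.205% higher. DESeq2 called 2 of the 7, beside 1.18% of all tested genes. An unadjusted edgeR p under 0.05 was reached by 5 of the 7 and by 10.2% of all tested genes. The log2 fold changes (ΔrsCBE over WT) of the 7 ran from -1.32 to -0.02 with a median of -0.65, against a median of 0.01 over all tested genes, and 7 of 7 were below 0, as were 48.2% of all tested genes. Levels of 5 of the 7 genes were lower in each ΔrsCBE library than in any WT library, a pattern shown by 8.92% of all tested genes, and by 16.1% when either direction is counted.

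Cdc20 lies on chromosome 4 at 118432901 to 118437352 of GRCm38, on the minus strand. WT libraries 1 to 3 gave 47.0, 53.9 and 65.7 CPM, and ΔrsCBE libraries 1 to 3 gave 29.1, 26.9 and 21.5 CPM. The groups stood apart, with the lowest WT library well above the highest ΔrsCBE library. The means were 55.6 ± 9.44 and 25.8 ± 3.90 CPM (SD, n = 3), a log2 fold change of -1.14 (SE 0.25, 95% interval -1.65 to -0.63) with an adjusted p of 0.0104 in edgeR. DESeq2 gave an adjusted p of 0.0703 for Cdc20, above the threshold of 0.05. Across 14 alternative fits the adjusted p ran from 0.00390 to 0.261 and the log2 fold change from -1.24 to -0.94, below 0 in all 14 and past the threshold in 9.

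Fzr1, the activator of late mitosis and G1, lies on chromosome 10 at 81366222 to 81378516 (minus strand). Its level was 97.3, 103 and 106 CPM in WT and 64.2, 68.2 and 63.1 CPM in ΔrsCBE. The replicates lay close together within each genotype and the genotypes did not overlap. The means were 102 ± 4.44 and 65.2 ± 2.68 CPM (SD, n = 3), a log2 fold change of -0.65 (SE 0.18, 95% interval -1.02 to -0.29). The edgeR adjusted p was 0.0606, so Fzr1 was not called, and none of the 14 alternative fits called it at 0.05 (adjusted p from 0.0590 to 0.325). The ratio of Cdc20 to Fzr1 counts was 0.483, 0.524 and 0.619 in WT and 0.453, 0.394 and 0.340 in ΔrsCBE. It was lower in every ΔrsCBE library, by -0.46 on the log2 scale, with an exact two-sided permutation p of 0.1, the smallest that 3 libraries against 3 allow, and 0.12 after adjustment over 6 ratios.

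**Figure D2:**
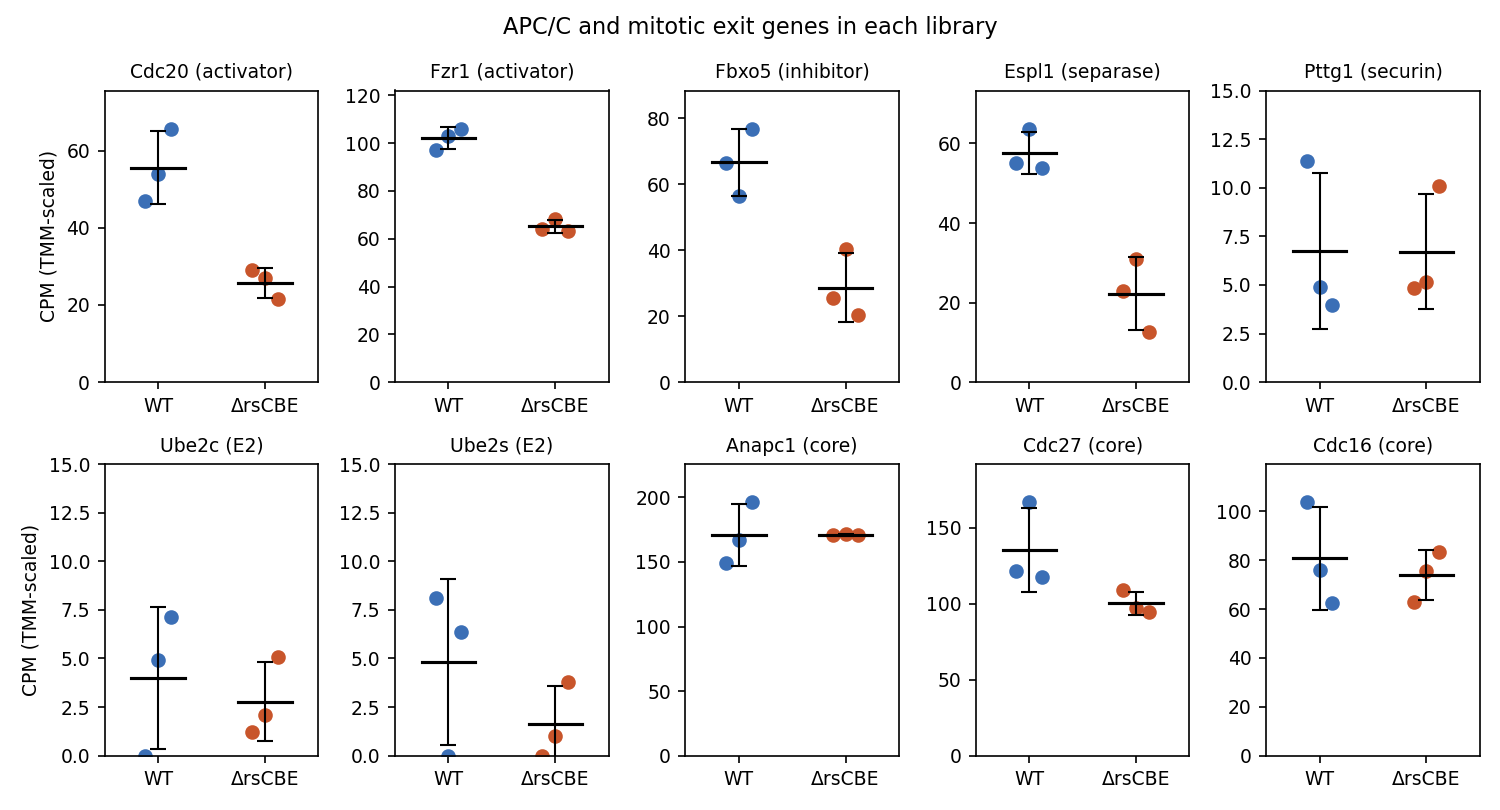
Level of each of the 10 genes in CPM (vertical axes, from 0, with their own scale per gene) in the 3 WT and 3 ΔrsCBE libraries; points are libraries and bars are the mean ± SD. The points of Cdc20, Fzr1, Fbxo5, Espl1 and Cdc27 do not overlap between genotypes, and those of Anapc1 and Cdc16 do. Ube2c, Ube2s and Pttg1 reach at most 7.13, 8.11 and 11.4 CPM, on few counts.

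Fbxo5, whose product inhibits the APC/C so that cyclins can build up before mitosis, lies on chromosome 10 at 5799160 to 5805600 (minus strand). Its level was 66.5, 56.4 and 76.8 CPM in WT and 25.4, 40.3 and 20.2 CPM in ΔrsCBE. All ΔrsCBE libraries were below all WT libraries, and replicate 2 was the highest of the ΔrsCBE libraries. The means were 66.6 ± 10.2 and 28.6 ± 10.4 CPM (SD, n = 3), a log2 fold change of -1.23 (SE 0.25, 95% interval -1.75 to -0.72) with an edgeR adjusted p of 0.00569. DESeq2 gave 0.0212 for Fbxo5, and over the 14 alternatives the adjusted p ran from 0.000235 to 0.141, past the threshold in 11.

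Espl1, the protease that opens the cohesin ring at anaphase, lies on chromosome 15 at 102296266 to 102324357 (plus strand). Its level was 55.2, 63.8 and 53.8 CPM in WT and 23.0, 31.0 and 12.6 CPM in ΔrsCBE. The WT libraries were close to each other, while the ΔrsCBE libraries spread more widely and all lay lower, with replicate 2 again the highest. The means were 57.6 ± 5.38 and 22.2 ± 9.21 CPM (SD, n = 3), a log2 fold change of -1.32 (SE 0.28, 95% interval -1.89 to -0.75) with an edgeR adjusted p of 0.00729. DESeq2 gave 0.0192 for Espl1, and over the 14 alternatives the adjusted p ran from 0.000541 to 0.132, past the threshold in 11.

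The count of called genes rested on single libraries. Without WT replicate 3, the deepest library, 0 of the 7 passed edgeR's threshold, and likewise without ΔrsCBE replicate 3. Over all tested genes, each of these fits called 59, against 132 in the full fit. With the sex pattern as a covariate 0 passed. The 4 male-pattern libraries alone hold 3 WT libraries and only 1 ΔrsCBE library, which is assumed to vary as the WT libraries do, so the 2 calls of that fit (Fbxo5 and Espl1) have no replicate check in ΔrsCBE. That fit is 1 of the 14 alternatives counted above. In these fits the log2 fold changes of Cdc20, Fbxo5 and Espl1 stayed below 0, for example -0.94, -1.08 and -1.37 without WT replicate 3.

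**Figure D3:**
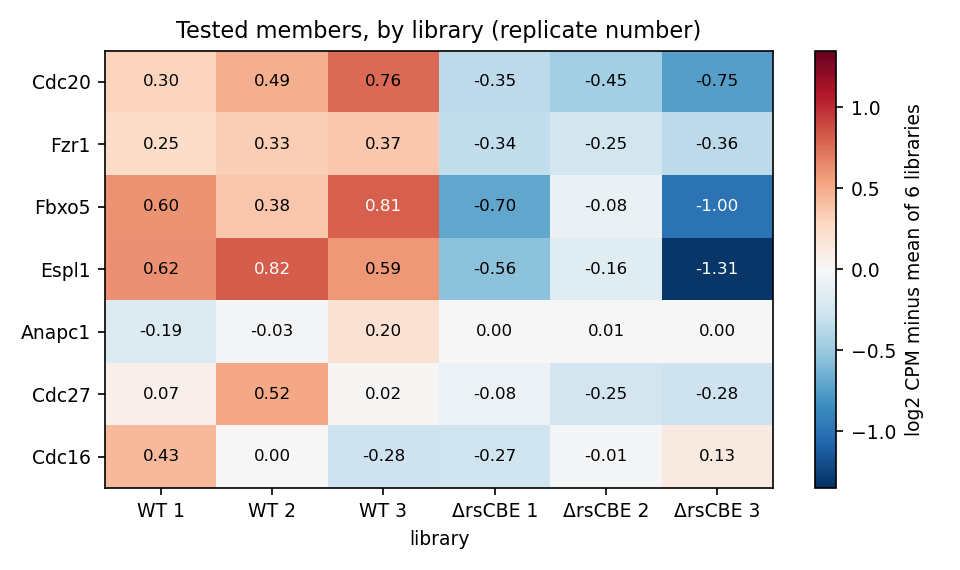
Deviation of log2 CPM of the 7 tested genes from the mean of that gene in all 6 libraries (rows are genes, columns are libraries, colour and number give the deviation in log2 units). Cdc20, Fzr1, Fbxo5, Espl1 and Cdc27 are above their mean in the WT columns and below it in the ΔrsCBE columns, and ΔrsCBE replicate 2 deviates less than the others for Fbxo5 and Espl1.

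Among the core subunits, Anapc1 is a large scaffold of the complex and lies on chromosome 2 at 128610104 to 128687391 (minus strand). Its level was 149, 167 and 196 CPM in WT and 171, 172 and 171 CPM in ΔrsCBE. The ΔrsCBE libraries lay inside the WT range. The log2 fold change was -0.02 (SE 0.14, 95% interval -0.32 to 0.28, edgeR adjusted p = 0.982), so a change of the size seen for Cdc20 lies outside the interval. Cdc27 and Cdc16 encode subunits of the arm that receives the activators. Cdc27 (chromosome 11, 104502745 to 104550620, minus strand) stood at 122, 167 and 117 CPM in WT and 109, 97.1 and 94.7 CPM in ΔrsCBE. The groups did not overlap, but the difference of -0.39 on the log2 scale (SE 0.17) had an edgeR adjusted p of 0.406. Cdc16 (chromosome 8, 13757676 to 13781938, plus strand) stood at 104, 76.0 and 62.6 CPM in WT and 62.9, 75.4 and 83.4 CPM in ΔrsCBE. Its groups overlapped throughout, with a log2 fold change of -0.09 (SE 0.21, edgeR adjusted p = 0.946). Leaving out 1 library turned the sign of Anapc1 (0.12 without WT replicate 3) and of Cdc16 (0.14 without WT replicate 1, 0.01 without ΔrsCBE replicate 1).

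Set against Anapc1 within each library, Cdc20, Fzr1, Fbxo5 and Espl1 were lower in every ΔrsCBE library. The ratio of Cdc20 to Anapc1 counts was 0.315, 0.324 and 0.335 in WT and 0.170, 0.157 and 0.126 in ΔrsCBE, a log2 difference of -1.12. The difference was -0.66 for Fzr1, -1.28 for Fbxo5 and -1.47 for Espl1 over Anapc1. Each of these 4 ratios had an exact two-sided permutation p of 0.1 (0.12 after adjustment over 6 ratios), the smallest the design allows. A ratio within a library shows unequal change and not which gene changed. Of the core subunits in the set, Anapc1 had the log2 fold change nearest 0 (-0.02, against -0.39 for Cdc27 and -0.09 for Cdc16). Ratios to other core subunits were not taken, so these values do not describe the core complex as a whole. The ratio of Fbxo5 to Fzr1 overlapped between genotypes, at 0.683, 0.548 and 0.724 in WT and 0.396, 0.591 and 0.320 in ΔrsCBE (exact permutation p = 0.2, adjusted 0.2).

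The enzymes that pass ubiquitin to APC/C substrates and the separase inhibitor were near the detection floor. Ube2c, which starts the ubiquitin chains, lies on chromosome 2 at 164769898 to 164778822 (plus strand) and had 0, 2 and 9 counts in WT and 1, 2 and 4 in ΔrsCBE. Ube2s, which extends the chains, lies on chromosome 7 at 4794546 to 4812590 (minus strand) and had 5, 0 and 8 counts in WT and 0, 1 and 3 in ΔrsCBE. Pttg1, the securin that holds separase inactive, lies on chromosome 11 at 43420250 to 43426251 (minus strand) and had 7, 2 and 5 counts in WT and 4, 5 and 8 in ΔrsCBE. For none of the 3 did the groups stand apart. With counts pooled per genotype and set against the library sizes, the ratio of ΔrsCBE to WT was 0.563 for Ube2c (95% exact interval 0.185 to 1.59), 0.272 for Ube2s (0.0646 to 0.881) and 1.07 for Pttg1 (0.498 to 2.35). These intervals cover counting error only and not the spread between libraries. In the edgeR fit without a count filter, the adjusted p was 0.765 for Ube2c, 0.751 for Ube2s and 0.983 for Pttg1, so a difference was not detectable at this depth.

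Levels between genes were compared as CPM per kilobase of the union of annotated exons in GENCODE M21, means ± SD over 3 libraries. In WT the order of this level was Fbxo5 at 33.2 ± 5.10, Cdc20 at 29.8 ± 5.06, Cdc16 at 26.0 ± 6.78, Fzr1 at 22.8 ± 0.990 and Cdc27 at 21.6 ± 4.39. Each of these 5 differed from its neighbour in the order by less than the larger of their SDs. Anapc1 at 10.2 ± 1.43, Espl1 at 6.58 ± 0.615, Pttg1 at 3.37 ± 2.01, Ube2c at 1.54 ± 1.40 and Ube2s at 0.937 ± 0.829 followed. In ΔrsCBE the level per kilobase was led by the core subunits Cdc16 at 23.8 ± 3.32 and Cdc27 at 16.05 ± 1.22, ahead of Fzr1 at 14.5 ± 0.597, Fbxo5 at 14.3 ± 5.21 and Cdc20 at 13.8 ± 2.09. The last 3 differed from each other by less than the SD of Cdc20. Anapc1 stood at 10.2 ± 0.0340 CPM per kilobase and Pttg1 at 3.35 ± 1.47, Espl1 at 2.54 ± 1.05, Ube2c at 1.07 ± 0.776 and Ube2s at 0.313 ± 0.381. Pttg1 and Espl1 differed by less than the SD of either. The exon union counts every annotated exon, so genes with long rarely used exons are placed too low.

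Some reads could belong to genes on the opposite strand, since the strand setting of the counting is not given in the sources used here. Cdc20 overlaps Elovl1, which had 9, 6 and 16 counts in WT and 10, 11 and 15 in ΔrsCBE and a log2 fold change of 0.03 (SE 0.40, edgeR adjusted p = 0.991). Fzr1 overlaps Mfsd12, with a log2 fold change of -0.11 (SE 0.47, edgeR adjusted p = 0.976). Ube2s overlaps Rpl28, which had 21 counts in all libraries together, and Ube2c overlaps Tnnc2, which had 0. Espl1 overlaps the processed pseudogene Gm49480, for which no count was used here.

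The remaining subunits of the core complex were taken from a list of 11 genes, of which 10 were tested. Of these, 0 were called by edgeR or by DESeq2, beside 1.69% and 1.18% of all tested genes. An unadjusted edgeR p under 0.05 was reached by 1 of the 10, near the 10.2% of all tested genes. That gene was Anapc5, a scaffold subunit, which averaged 207 ± 27.3 CPM in WT against 151 ± 22.1 in ΔrsCBE (SD, n = 3); its log2 fold change was -0.46 (SE 0.15, edgeR adjusted p = 0.155). Anapc13, Cdc26 and Anapc7 had log2 fold changes of -0.81 (SE 0.41), -0.53 (SE 0.32) and -0.34 (SE 0.23), with edgeR adjusted p-values of 0.516, 0.621 and 0.676. Over the 10 genes the log2 fold changes ran from -0.81 to 0.06 with a median of -0.34, and 9 were below 0. With Anapc1, Cdc27 and Cdc16 added, 13 of 14 core subunits were tested and 0 were called. Of the 13, 2 had an unadjusted edgeR p under 0.05 and 12 had a negative log2 fold change. Over all tested genes these shares were 10.2% and 48.2%.

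**Figure D4:**
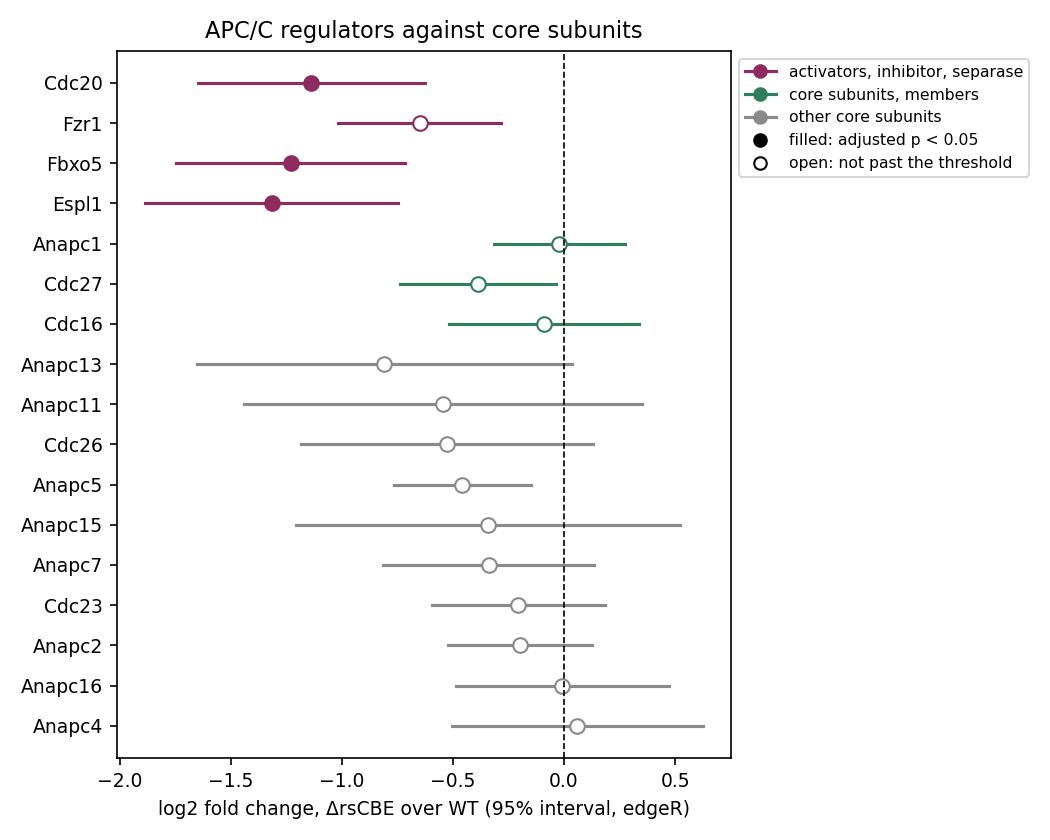
Log2 fold change (ΔrsCBE over WT, horizontal axis) with its 95% interval for the 7 tested genes of the set and the 10 other tested core subunits; filled points have an edgeR adjusted p under 0.05. Cdc20, Fbxo5 and Espl1 are filled and lie between -1.32 and -1.14, while the intervals of 11 of 13 core subunits cross 0.

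Proteins that the APC/C destroys were represented by a list of 27 other substrate genes, chosen with earlier results of these libraries known, so that its direction is not independent evidence. Of 24 tested, 15 fell, 0 rose and 9 did not pass in edgeR, with a median log2 fold change of -1.16. Over all tested genes, edgeR called 1.49% lower. DESeq2 called 12 of the 24, beside 1.18% of all tested genes. Ccna2, the cyclin of S phase and G2, fell from 204 ± 17.0 to 85.5 ± 12.4 CPM (log2 fold change -1.24, SE 0.16, edgeR adjusted p = 4.17e-05). Dlgap5 and Tpx2, which build spindle microtubules, fell by 1.33 (SE 0.19, edgeR adjusted p = 0.000117) and 1.14 (SE 0.19, edgeR adjusted p = 0.00103) on the log2 scale. Cenpf, a kinetochore protein, fell from 305 ± 25.4 to 119 ± 44.0 CPM (log2 fold change -1.34, SE 0.18, edgeR adjusted p = 0.000157). The kinases Plk1, Aurka and Aurkb, of central roles in mitosis, and Bub1, of the spindle checkpoint, were also called, with log2 fold changes of -1.32, -1.60, -1.24 and -1.66 and edgeR adjusted p-values of 0.0106, 0.0324, 0.00668 and 0.00216. They are named outside the naming rule, after their values were seen.

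Not all substrates moved. Cdc6, the replication licensing factor, averaged 24.0 ± 10.8 CPM in WT against 23.6 ± 7.38 in ΔrsCBE (log2 fold change 0.08, SE 0.36, edgeR adjusted p = 0.976). Skp2, the substrate receptor of another ubiquitin ligase, had a log2 fold change of -0.21 (SE 0.35, edgeR adjusted p = 0.908). Cdc6 and Skp2 were also named after their values were seen. Leaving out WT replicate 3 or ΔrsCBE replicate 3 lowered the calls over all tested genes from 132 to 59 in either fit. Of the substrates, 7 or 6 were then called. The covariate for sex pattern left 9, in a fit whose genotype difference rests on ΔrsCBE replicate 1 against WT.

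Of 12 regulators and cooperating enzymes, 7 were tested. An unadjusted edgeR p under 0.05 was reached by 2 of the 7 and by 10.2% of all tested genes. The same 1 gene, lower in ΔrsCBE, was called by edgeR and by DESeq2, beside 1.69% and 1.18% of all tested genes. This was Bub1b (BubR1), part of the checkpoint complex that holds Cdc20 inactive, which averaged 207 ± 8.82 CPM in WT against 81.9 ± 22.2 in ΔrsCBE (log2 fold change -1.33, SE 0.17, edgeR adjusted p = 4.52e-05). Bub3, its partner, had -0.46 (SE 0.22, edgeR adjusted p = 0.490). The deubiquitinase Usp37 had -0.49 (SE 0.21, edgeR adjusted p = 0.387) and the ubiquitin-conjugating enzyme Ube2d2a 0.16 (SE 0.20, edgeR adjusted p = 0.852). The median log2 fold change of the 7 was -0.07.

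Phosphatases that reverse mitotic phosphorylation, with their regulators, gave 0 calls among 13 tested of 14 listed (2 at an unadjusted p under 0.05 in edgeR, 0 called in DESeq2), with a median log2 fold change of -0.12. Over all tested genes, edgeR called 1.69%, DESeq2 called 1.18%, and 10.2% had an unadjusted edgeR p under 0.05. Mastl, the kinase that restrains the phosphatase PP2A in mitosis, had a wide error, at -1.19 on the log2 scale (SE 0.40, edgeR adjusted p = 0.185). The catalytic subunits Ppp2ca and Ppp1cc had -0.34 (SE 0.12, edgeR adjusted p = 0.202) and -0.45 (SE 0.25, edgeR adjusted p = 0.586), and Cdc14a had 0.35 (SE 0.22, edgeR adjusted p = 0.640).

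Cohesin, the ring cut by Espl1, gave 0 calls among 8 tested of 8 listed in edgeR and in DESeq2, with 5 at an unadjusted p under 0.05 in edgeR, beside 1.69% of all tested genes called by edgeR and 10.2% at an unadjusted p under 0.05. Stag1 averaged 275 ± 7.52 CPM in WT against 201 ± 4.0 in ΔrsCBE (log2 fold change -0.45, SE 0.12, edgeR adjusted p = 0.0659). Rad21, the subunit that separase cuts, had -0.42 (SE 0.12, edgeR adjusted p = 0.0919) and Pds5a -0.31 (SE 0.12, edgeR adjusted p = 0.278). Wapl, which releases cohesin from chromatin outside anaphase, had a positive value of 0.64 (SE 0.25, edgeR adjusted p = 0.294), at 38.1 ± 7.54 CPM in WT and 61.8 ± 18.9 CPM in ΔrsCBE. The SCF complex, the ubiquitin ligase of G1 and S phase, gave 0 calls in both tools among 7 tested genes of 9 in the count table. Over all tested genes, DESeq2 called 1.18%. Of the 7, 0 had an unadjusted p under 0.05 in edgeR, and the median log2 fold change was -0.11. Skp2 was counted both here and among the substrates. The SCF genes Fbxw11 and Cdc34 had log2 fold changes of -0.33 (SE 0.18, edgeR adjusted p = 0.585) and 0.29 (SE 0.27, edgeR adjusted p = 0.794).

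**Figure D5:**
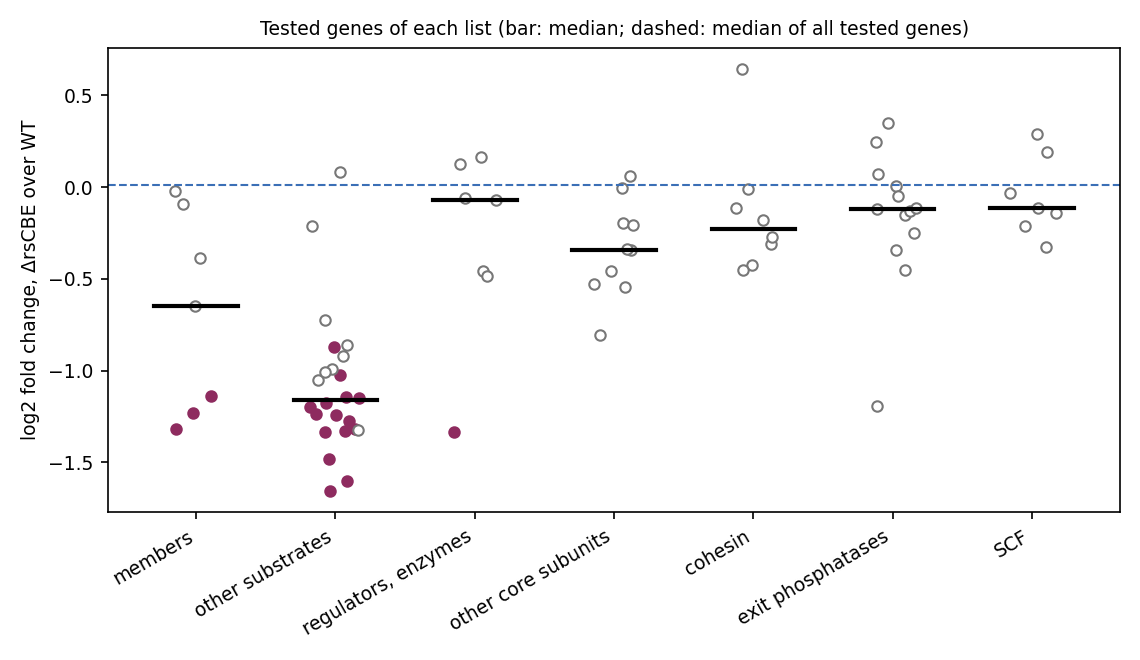
Log2 fold change (ΔrsCBE over WT, vertical axis) of every tested gene in the 7 gene lists; points are genes, the short bar is the list's median, the dashed line is the median of all tested genes and filled points were called lower. The substrates have a median of -1.16 and 15 filled points of 24, and the core subunits, phosphatases, cohesin and SCF have none.

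By library, the mean deviation of log2 CPM from each gene's mean was 0.30, 0.36 and 0.35 in WT and -0.33, -0.17 and -0.51 in ΔrsCBE for the 7 tested genes of the set. For the substrates it was 0.45, 0.64 and 0.53 in WT and -0.70, -0.18 and -0.74 in ΔrsCBE. For the cycling cell markers, which share Ccna2 with the substrates, it was 0.35, 0.39 and 0.41 in WT and -0.52, -0.01 and -0.62 in ΔrsCBE. In each of the 3 lists ΔrsCBE replicate 2 lay nearest to WT and replicate 3 farthest. Among the cycling cell markers, Mki67, Top2a and Ccna2 were called lower of 7 tested, beside 1.49% of all tested genes called lower. Pcna, Mcm2, Mcm5 and Cdk1 were not called, at log2 fold changes of -0.38, -0.47, -0.50 and -0.52 (edgeR adjusted p = 0.667, 0.282, 0.375 and 0.622). Mki67 had a log2 fold change of -0.97 (SE 0.16, edgeR adjusted p = 0.0100) and Top2a of -1.19 (SE 0.19, edgeR adjusted p = 0.00715).

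The genes whose level followed Cdc20 most closely over the 6 libraries were sought among 6415 tested genes with a mean of at least 20 CPM, by Pearson's r of log2 CPM, as a description of libraries that also share the genotype difference. The 5 closest were Kif4 at 0.995, Stil at 0.993, Pbrm1 at 0.990, H4c12 at 0.986 and H3c2 at 0.981. Kif4 is a chromosome-bound kinesin, Stil acts in centriole duplication, Pbrm1 is a chromatin remodelling subunit, and H4c12 and H3c2 encode histones. Kif4, Stil and H3c2 were called lower, at log2 fold changes of -1.29, -0.95 and -1.21 (edgeR adjusted p = 0.000253, 0.0352 and 0.00887), whereas Pbrm1 had -0.29 and H4c12 had -1.22 (edgeR adjusted p = 0.247 and 0.0677). Within the set, the r with Cdc20 was 0.970 for Fzr1, 0.921 for Fbxo5, 0.916 for Espl1, 0.736 for Cdc27, 0.205 for Anapc1 and -0.09 for Cdc16.

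The promoter letters shown above were also counted across the other genes, with no test. A gene with several windows counted as holding a match if any of its windows did. A CHR and a CCAAT box counted as both present could therefore lie in different windows. A CHR and a CCAAT box were both present in 13 of the 21 substrates that had a promoter entry and in 0 of 10 other core subunits. They were both present in 2 of 8 regulators, 2 of 11 phosphatase genes, 1 of 6 cohesin genes and 2 of 8 SCF genes, and in 8.82% of the tested genes with an entry. Among all 6000 tested genes with a promoter entry, 529 held both, and 50 of these (9.45%) were called lower. The share called lower was 2.03% of 492 genes with a CHR alone, 0.962% of 2079 with a CCAAT box alone and 0.517% of 2900 with neither. The median log2 fold change of the 529 genes was -0.07. Cdc20, Fbxo5 and Espl1 are among the 50. Fzr1, Cdc27, Anapc1 and Cdc16 lack a CHR in the window and were not called. Ube2c, with both kinds of match, and Ube2s, with a CHR alone, had too few reads for a test. The members and lists were chosen with earlier results known, and a link between these letters and mRNA level was not tested.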

How the data were processed

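RNA was sequenced from 3 WT and 3 ΔrsCBE libraries of sorted small pre-B cells, made from rRNA-depleted total RNA with a strand-specific kit, per the labels' protocols. The authors deposited 1 table of whole-number read counts per gene symbol, without normalization. Per the submitters' processing notes the build was mm10 and the tools included Trim Galore 0.6.10, STAR 2.7.11, HTSeq and DESeq2; their order, the annotation, the strand setting and any filter are not given in the sources used here. Columns were mapped by the library names in the labels.

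Counts were tested with edgeR 4.0.16 in R 4.3.3: filterByExpr (minimum count 10), TMM scaling, glmQLFit with robust estimation and glmQLFTest, genotype as the only factor, Benjamini-Hochberg adjustment over 7792 genes and a threshold of 0.05. CPM used TMM-scaled library sizes of the kept genes, and log2 CPM a prior count of 2. Intervals for pooled counts were exact at the 95% level, and intervals and the floor of 3 counts cover counting error only. Gene coordinates come from GENCODE M21 and promoter sequences from RefSeq (GRCm38.p6).

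The members and lists were chosen with earlier results of these data known. Named genes were all 10 members, up to 4 tested genes per other list by smallest p, every called gene of lists of at most 14, and the 5 genes most like Cdc20; others are said to be named after their values were seen. Alternatives were DESeq2 1.42.0, other scalings and filters, a threshold of 0.1, each library left out, a replicate block, a sex-pattern covariate and male-pattern libraries alone.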

Additional observations from a re-analysis of the deposited data

How the results depend on the processing

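With 1 library left out, called genes ranged from 59 to 187 over all genes (132 in the full fit), from 0 to 3 in the APC/C set, from 6 to 18 among other substrates, from 0 to 1 among phosphatases and from 0 to 1 in cohesin. The cohesin call was higher in ΔrsCBE without ΔrsCBE replicate 1 and lower in ΔrsCBE without ΔrsCBE replicate 2. The lowest count over all genes came both without WT replicate 3 and without ΔrsCBE replicate 3, at 59 each, and 0 genes of the set were called in either. The full fit called 116 genes lower and 16 higher; without ΔrsCBE replicate 1 the split was 113 and 44, and without ΔrsCBE replicate 2 it was 153 and 34. The log2 fold change ranged from -0.11 to 0.12 for Anapc1 and from -0.31 to 0.14 for Cdc16. The covariate for sex pattern gave 87 called genes in all, 0 in the set, 9 substrates and 2 cohesin genes. The genotype difference of that fit rests on ΔrsCBE replicate 1, the only male-pattern ΔrsCBE library. Cohesin also had 2 with a threshold of 0.1 and 2 in male-pattern libraries alone, a fit with a single ΔrsCBE library that is assumed to vary as WT does. The cause of these differences was not tested. Over the alternatives, the median log2 fold change of the set lay between -0.69 and -0.61. Library depth limits Ube2c, Ube2s and Pttg1, which had 18, 17 and 31 counts in all.

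With the replicate number as a block, 136 genes were called in all, 3 in the set and 16 substrates. Same-numbered libraries correlated by only 0.01, 0.02 and 0.01 in their deviations from the genotype means, and not every library correlated best with its own number. The numbers are therefore not taken as pairs.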

Other observations

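Of the genes on the lists, 15 lay below the count filter, 3 of them in the APC/C set, and those given here were named after their values were seen. Ccnb1, the cyclin whose destruction ends mitosis, had 30 counts in WT and 10 in ΔrsCBE over 3 libraries each. Gmnn, which blocks a renewed round of replication until the APC/C removes it, had 28 and 8 counts. Trip13, which disassembles the checkpoint complex, had 25 and 8 counts. In the edgeR fit without a count filter their log2 fold changes were -1.71 (SE 0.58), -1.93 (SE 0.62) and -1.81 (SE 0.65), with adjusted p-values of 0.196, 0.136 and 0.256. Mad2l1, the checkpoint protein that binds Cdc20, had 26 counts in WT and 16 in ΔrsCBE (log2 fold change -0.85, SE 0.54, edgeR adjusted p = 0.751). Cdc14b, a phosphatase, went the other way, with 3 counts in WT and 11 in ΔrsCBE (log2 fold change 1.56, SE 1.01, edgeR adjusted p = 0.751). Anapc10 had 18 and 17 counts, Rbx1 had 29 and 30, and Cks1b had 17 and 16. None of the 15 passed the threshold in that fit.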
